A study of Homo sapiens with 20 samples.

Results

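The distribution of mRNA between heavy and light polysomes was compared in BE(2)-C cells after transfection of lncNB1 siRNA-1 or of control siRNA. BE(2)-C, a human neuroblastoma line, carries extra copies of the MYCN oncogene, and lncNB1 is a long noncoding RNA of these cells. The cells were transfected for 48 h, cycloheximide was used to hold ribosomes on the mRNA, and polysomes were separated on a sucrose gradient. RNA of the heavy and of the light fraction was hybridized to human Clariom S arrays (100 ng per array). The comparison used 14 of the 20 arrays of the series. These were 3 heavy and 3 light arrays of siRNA-1 (replicates 1, 2 and 4), and 4 heavy and 4 light arrays of control siRNA (replicates 1 to 4). The other 6 arrays came from siRNA-2, a second siRNA against lncNB1, and shared the estimate of the spread. For each siRNA and replicate number, the light log2 value was subtracted from the heavy one, which gave 3 differences for siRNA-1, 3 for siRNA-2 and 4 for control. The shift of an mRNA was the mean of the siRNA-1 differences minus the mean of the control differences, so that a shift above 0 stands for a higher heavy value relative to the light one after siRNA-1. All arrays came from 1 cell line, and the labels do not say how the replicates were made or whether a heavy and a light array of the same number came from 1 transfection. The p-values therefore measure only the spread between these samples, which may be technical.

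Ribosomes that translate the same mRNA one behind the other form a polysome, and an mRNA with more ribosomes sediments further into the gradient. Heavy polysomes hold mRNA with many ribosomes and light polysomes hold mRNA with few. An mRNA can become more or less abundant in both fractions alike, which leaves the difference as it was, or it can move between them, which changes the difference. Long reading frames have room for more ribosomes than short ones. The arrays were each scaled to a common distribution, so that values rank mRNAs against each other within a fraction and the total amount of RNA in a fraction was not measured.

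The cells carried the mRNAs of neuroblastoma. All 9 measured markers of that type lay between 7.30 (TH, the first enzyme of catecholamine synthesis) and 12.2 (MYCN) on the log2 scale, averaged over the 20 arrays. The 95th percentile of 612 negative control probe sets was 4.92. The Schwann cell, fibroblast and leukocyte markers lay between 2.79 and 8.39. Above that percentile were 4 of 6 Schwann cell, 7 of 7 fibroblast and 4 of 7 leukocyte markers. The leukocyte markers PTPRC and CD14 had 4.12 and 6.70. SOX10 (7.36), COL1A2 (8.33) and PDGFRB (8.39) lay above TH, so the levels of the marker groups overlapped. Among the fibroblast markers, LUM, a matrix proteoglycan, averaged 8.83 with siRNA-1 and 6.46 with control siRNA in heavy polysomes, and 7.62 with siRNA-1 and 5.24 with control siRNA in light polysomes. LUM rose in both fractions (2.37 and 2.38), as did DCN (0.90 and 0.70), and the other 5 measured fibroblast markers did not pass the test in either. In these bulk samples, a change in the number of cells of a kind and a change in RNA per cell cannot be told apart. The part of these 2 mRNAs in other results was not tested. Of the 9 neuroblastoma markers, 3 fell in heavy polysomes (HAND2, ISL1 and DBH) and 3 in light polysomes (HAND2, ISL1 and MYCN), against 3.23% and 6.32% of all 21448 transcript clusters that were lower there. HAND2 and ISL1, transcription factors of sympathetic neurons, fell by 0.75 and 0.75 in heavy and by 0.84 and 0.71 in light polysomes, although HAND2 lost its call in heavy polysomes without siRNA-1 replicate 2 (adjusted p = 0.0598), and ISL1 lost its own there without any 1 of siRNA-1 replicates 1 and 2 and control replicates 3 and 4 (largest adjusted p = 0.210). DBH, the enzyme that makes noradrenaline, fell by 0.53 in heavy polysomes and lost its call without siRNA-1 replicate 2 or control replicate 2 or 3 (largest adjusted p = 0.0897).

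How far apart heavy and light polysomes were differed between replicates. Each difference was regressed across all mRNAs on the mean of the other 9, and the slope was taken. It was 0.585, 1.04 and 1.38 for siRNA-1 replicates 1, 2 and 4, against 0.527, 0.900, 1.07 and 1.33 for control replicates 1 to 4. Replicate 1 had the lowest slope with each siRNA (0.727 for siRNA-2) and replicate 4 the highest with both siRNA-1 and control. The mean slope was 1.00 ± 0.399 for siRNA-1 (SD, n = 3) and 0.957 ± 0.337 for control (SD, n = 4). The difference of 0.044 was within the spread between replicates (two-sided exact permutation test over 35 arrangements, p = 0.8, where the smallest possible p is 0.0286).

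**Figure D1:**
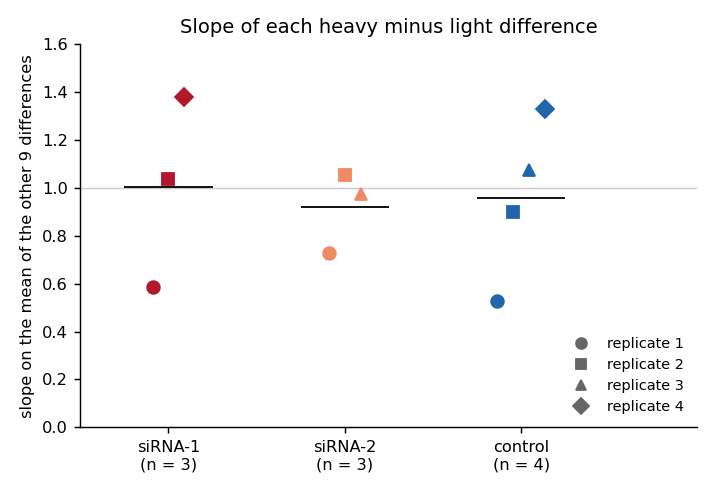
Regression slope of every difference on the average of the other 9 (vertical axis, no unit), for siRNA-1, siRNA-2 and control. Each point is 1 replicate number and each line is the group mean. Replicate 1 is lowest in every group, between 0.527 and 0.727, and siRNA-1 and control cover almost the same range.

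No mRNA had a shift that passed the test. Of 21448 transcript clusters, 0 (0%) passed at an adjusted p under 0.05 (limma, Benjamini-Hochberg), and the smallest adjusted p was 0.231. At an unadjusted p under 0.05 there were 1206 clusters (5.62%), of which 660 (3.08%) had a shift above 0 and 546 (2.55%) a shift below 0. The 3 siRNA-1 differences lay wholly above the 4 control differences for 677 clusters (3.16%) and wholly below them for 644 (3%). With array weights 3 clusters passed (GDF9, SLITRK6 and 1 without a gene symbol), and without replicate 1 in any group 1 passed (SLITRK6), all with a shift below 0. The median shift over all clusters was 0.028, and 11860 clusters (55.3%) had a shift above 0.

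The intervals set limits to the size of the shift. The median half-width of the 95% confidence interval was 0.44 on the log2 scale. The interval lay wholly within a 2-fold change in either direction for 20469 clusters (95.4%), and within a 1.5-fold change for 9522 (44.4%). These counts cover all clusters, of which 16401 (76.5%) had a mean value above the 95th percentile of the negative controls. For clusters below it, a narrow interval does not limit the shift of the mRNA, as the signal may be background. A shift of at least 1.5-fold in size was measured for 422 clusters, 237 above and 185 below 0, and a shift of at least 2-fold for 24, of which 14 were above and 10 below 0. Of those clusters, 11 of the 14 above 0 and 4 of the 10 below 0 had a mean value below the 95th percentile of the negative controls.

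The abundance of many mRNAs changed with siRNA-1 within each fraction. In heavy polysomes 1912 clusters (8.91%) passed for siRNA-1 minus control, 1219 higher (5.68%) and 693 lower (3.23%). In light polysomes 2486 (11.6%) passed, 1130 higher (5.27%) and 1356 lower (6.32%). Both lists held 1177 clusters, which was 61.6% of the heavy list and 47.3% of the light list, and each of the 1177 had the same direction in both fractions, 665 higher and 512 lower. Of the 1177, 58 had an unadjusted p under 0.05 for the shift, against 5.62% of all clusters. For 1116 the interval of the shift lay wholly within a 2-fold change, against 95.4% of all clusters. Both counts lay near the shares over all clusters, so neither sets the 1177 apart. The heavy and light counts rested in part on 1 library, as they were 913 in heavy and 1531 in light polysomes without siRNA-1 replicate 2. The count of lower clusters in heavy polysomes was also 428 without control replicate 2.

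**Figure D2:**
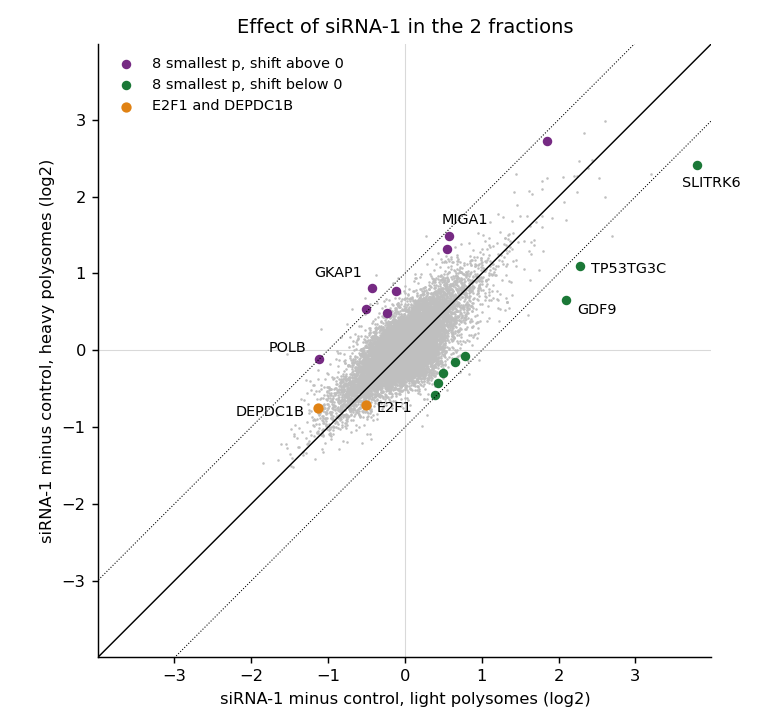
Log2 effect of siRNA-1 (siRNA-1 minus control) in heavy polysomes (vertical axis) against light polysomes (horizontal axis) for transcript clusters with or without a gene symbol. The solid line marks a shift of 0 and the dotted lines a shift of 2-fold in either direction. Most clusters lie between the dotted lines, and SLITRK6, TP53TG3C and GDF9 lie below the lower one.

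Among clusters with a gene symbol, those with the smallest p and a shift above 0 were MIGA1, CTSO, TMEM59, GKAP1, LYPD1, POLB, SLC4A7 and PDGFD. None passed (limma adjusted p from 0.231 to 0.582). In all 8 the siRNA-1 differences lay above the control differences, which held for 3.16% of all clusters. The 8 were chosen by the p of these same differences, so the lack of overlap is not separate support. MIGA1 encodes a protein of the outer mitochondrial membrane that acts in mitochondrial fusion. Its log2 values in heavy polysomes were 7.89, 8.07 and 7.80 with siRNA-1, against 6.62, 6.30, 6.44 and 6.40 with control siRNA. In light polysomes they were 7.37, 7.43 and 7.12 with siRNA-1, against 6.72, 6.72, 6.69 and 6.81 with control siRNA. MIGA1 was thus higher with siRNA-1 in every array of both fractions, and by more in the heavy one. The differences were 0.52, 0.65 and 0.68 with siRNA-1 and -0.10, -0.42, -0.26 and -0.41 with control siRNA, a shift of 0.91 (SE 0.160, 95% interval 0.57 to 1.25, adjusted p = 0.231). MIGA1 rose by 1.48 in heavy (adjusted p = 1.86e-05) and by 0.57 in light polysomes (adjusted p = 0.00634).

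POLB, the DNA polymerase that fills gaps in base excision repair, had the opposite arrangement, in which the effect that passed was that in the light fraction. Its values in light polysomes were 6.58, 6.50 and 6.98 with siRNA-1, against 7.80, 7.76, 7.63 and 8.01 with control siRNA. In heavy polysomes they averaged 6.37 ± 0.33 with siRNA-1 (SD, n = 3) and 6.48 ± 0.22 with control siRNA (SD, n = 4). The light values did not overlap and the heavy values did. POLB fell by 1.12 in light polysomes (adjusted p = 0.000137), had an effect of -0.11 in heavy polysomes (adjusted p = 0.816), and had a shift of 1.00 (SE 0.214, adjusted p = 0.361). Its differences lay below 0 with both siRNAs, at -0.11, -0.50 and -0.34 for siRNA-1 and between -1.04 and -1.59 for control.

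TMEM59, a membrane protein of the Golgi and endosomes, was the brightest of the 8, with a mean value of 9.46. Its differences were 0.54, 0.74 and 0.34 with siRNA-1 and -0.45, -0.15, -0.24 and -0.54 with control siRNA, all above 0 with the first and all below 0 with the second. The shift was 0.88 (SE 0.170, adjusted p = 0.316), and TMEM59 rose by 0.77 in heavy polysomes (adjusted p = 0.00175) with an effect of -0.12 in light polysomes. SLC4A7, a sodium bicarbonate cotransporter, had differences of 1.21, 0.96 and 1.18 with siRNA-1 and 0.45, 0.30, 0.32 and 0.54 with control siRNA. Its shift was 0.72 (SE 0.167, adjusted p = 0.582). Its rise of 0.48 in heavy polysomes (adjusted p = 0.0273) lost its call without any 1 of siRNA-1 replicates 1 and 4 and control replicates 2, 3 and 4 (largest adjusted p = 0.0790).

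CTSO, a cysteine protease of the cathepsin family, and PDGFD, a growth factor that binds a platelet-derived growth factor receptor, were higher in both fractions. CTSO had values of 6.58, 6.96 and 6.05 with siRNA-1 and 3.72, 4.05, 3.69 and 3.80 with control siRNA in heavy polysomes. In light polysomes its values were 5.59, 6.07 and 4.81 with siRNA-1 and 3.53, 3.76, 3.54 and 3.74 with control siRNA. The control values of CTSO all lay below the 95th percentile of the negative controls. CTSO rose by 2.72 in heavy (adjusted p = 1.39e-05) and by 1.85 in light polysomes (adjusted p = 8.98e-05), and its shift was 0.87 (SE 0.164, adjusted p = 0.316). PDGFD rose by 1.32 in heavy polysomes (adjusted p = 0.000535) and by 0.54 in light polysomes (adjusted p = 0.0188), and the second of these calls was lost without siRNA-1 replicate 2 or control replicate 4 (largest adjusted p = 0.0898). Its shift was 0.78 (SE 0.183, adjusted p = 0.582). GKAP1 (shift 1.24, SE 0.239), a protein that anchors a cyclic GMP-dependent kinase, and LYPD1 (shift 1.04, SE 0.218), a membrane-anchored modulator of nicotinic receptors, had mean values of 4.16 and 4.54, under the 95th percentile of the negative controls.

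Among clusters with a gene symbol, those with the smallest p and a shift below 0 were GDF9, SLITRK6, PKD2L2, TP53TG3C, ALDH1L1, LOC101928965, SCGB1A1 and PPP1R1C. None passed (limma adjusted p from 0.231 to 0.361), and in all 8 the siRNA-1 differences lay below the control differences, which held for 3% of all clusters. Here too the choice by p makes such a gap likely, and it is not separate support. Of the 8, 6 had a mean value below the 95th percentile of the negative controls. SLITRK6, a membrane protein that controls the outgrowth of neurites, had the largest effect of siRNA-1 in light polysomes among the 16 genes with the smallest p. Its values in light polysomes were 7.38, 8.06 and 7.76 with siRNA-1, against 4.10, 4.22, 3.67 and 3.76 with control siRNA. In heavy polysomes they were 6.49, 6.50 and 5.84 with siRNA-1, against 3.57, 4.09, 3.75 and 4.04 with control siRNA. The groups did not overlap in either fraction, and the control values of both fractions lay below the 95th percentile of the negative controls. SLITRK6 rose by 2.41 in heavy (adjusted p = 1.39e-05) and by 3.79 in light polysomes (adjusted p = 1.11e-08). The differences were -0.89, -1.56 and -1.92 with siRNA-1 and -0.53, -0.13, 0.08 and 0.29 with control siRNA, a shift of -1.38 (SE 0.245, 95% interval -1.91 to -0.86, adjusted p = 0.231). It passed with array weights (-1.49, adjusted p = 0.0483) and without replicate 1 in any group (-1.82, adjusted p = 0.0249) and was -1.03 without replicate 4 in any group and -1.15 without siRNA-1 replicate 4, where it did not pass.

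GDF9, a secreted factor of the transforming growth factor beta family known from the oocyte, had the smallest p of all named genes. Its values in light polysomes were 6.78, 6.50 and 6.49 with siRNA-1, against 4.89, 4.12, 4.76 and 4.21 with control siRNA. In heavy polysomes they were 5.43, 5.06 and 4.66 with siRNA-1, against 4.61, 4.08, 4.38 and 4.47 with control siRNA. All 8 control values and the heavy value of siRNA-1 replicate 4 lay below the 95th percentile of the negative controls (4.92), so the differences and the shift of GDF9 are taken against values below that level. The siRNA-1 values lay above all control values in both fractions, in heavy polysomes narrowly. It rose by 2.10 in light polysomes (adjusted p = 1.37e-05) and by 0.66 in heavy polysomes (adjusted p = 0.0354), where the call was lost without any 1 of siRNA-1 replicates 1 and 2 and control replicates 2, 3 and 4 (largest adjusted p = 0.123). The differences were -1.35, -1.44 and -1.83 with siRNA-1 and -0.27, -0.04, -0.38 and 0.26 with control siRNA, a shift of -1.43 (SE 0.229, 95% interval -1.92 to -0.95, adjusted p = 0.231). It passed with array weights (-1.45, adjusted p = 0.0483), and in no other alternative.

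TP53TG3C belongs to a family of near-identical copies named as targets of p53, and its signal cannot be told apart with certainty from that of TP53TG3D and TP53TG3B. TP53TG3C rose by 1.10 in heavy (adjusted p = 0.00396) and by 2.28 in light polysomes (adjusted p = 3e-06). Its differences were -1.74, -2.11 and -2.28 with siRNA-1 and -1.17, -0.86, -0.42 and -0.99 with control siRNA, a shift of -1.18 (SE 0.235, adjusted p = 0.316). TP53TG3B had a shift of -0.70 (SE 0.178, adjusted p = 0.582) and TP53TG3D one of -0.60 (SE 0.311, adjusted p = 0.914). All 3 copies had a larger effect of siRNA-1 in light than in heavy polysomes. Among the other 5, PKD2L2, of the polycystin family of channel proteins, rose by 0.79 in light polysomes (adjusted p = 0.000725) with an effect of -0.08 in heavy polysomes. PPP1R1C, an inhibitor of protein phosphatase 1, rose by 0.65 in light polysomes (adjusted p = 0.00427) with an effect of -0.15 in heavy polysomes. Their shifts were -0.87 and -0.80 (SE 0.170 and 0.169), both at mean values under the 95th percentile of the negative controls.

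**Figure D3:**
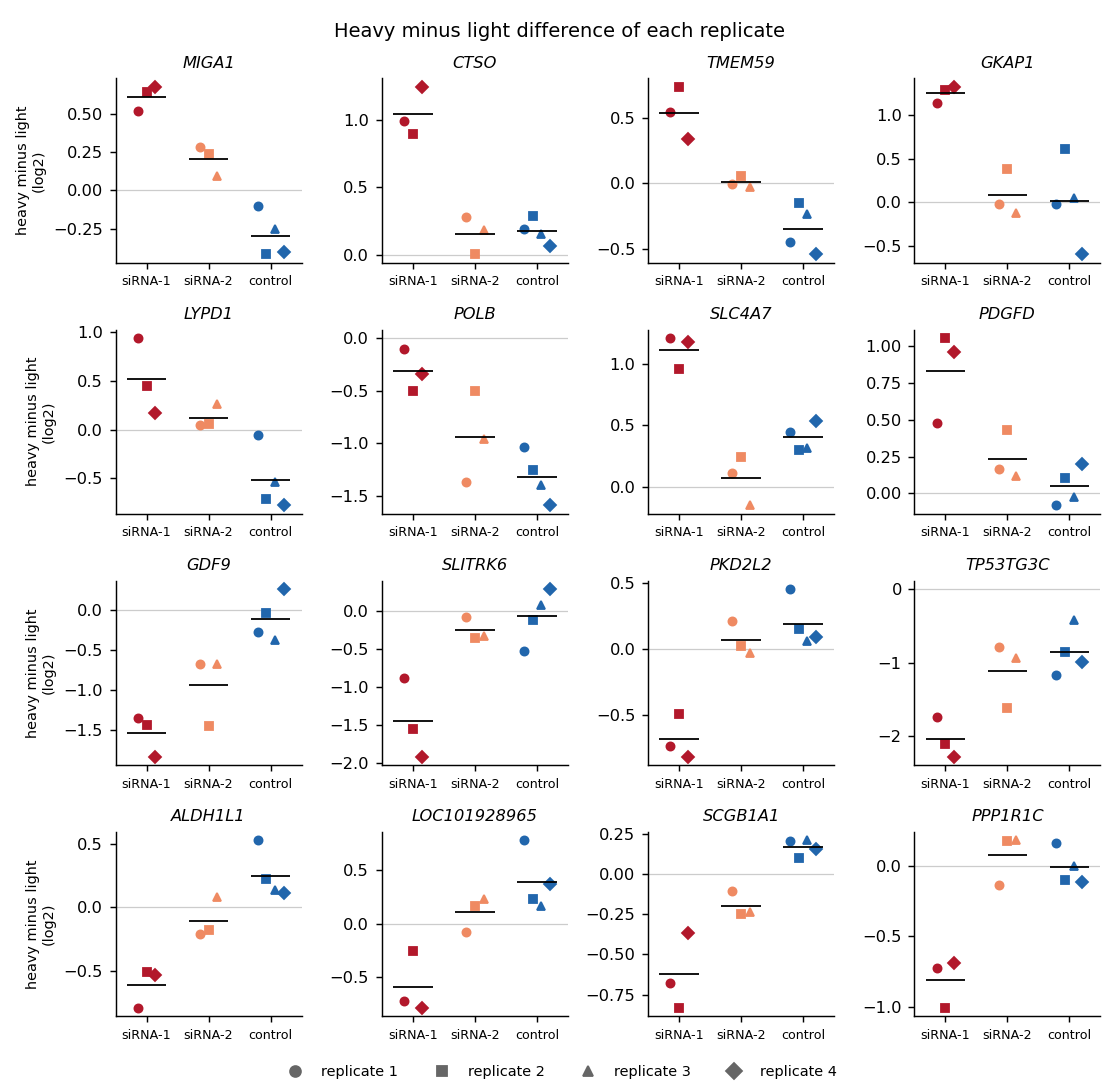
Heavy minus light log2 difference (vertical axis) for siRNA-1, siRNA-2 and control in the 8 genes with the smallest p and a shift above 0 (upper 8 panels) and the 8 with a shift below 0 (lower 8 panels). Each point is 1 replicate number and each line is the group mean. The siRNA-1 points lie apart from the control points in all 16 panels, although none of the genes passed the test. The genes were chosen by the p of these differences, so the gap is not separate support.

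An opposite direction in the 2 fractions would be the plainest form of movement between them. An effect of siRNA-1 of at least 0.3 in size, with opposite signs in heavy and light polysomes, was measured for 52 clusters, 25 higher in heavy polysomes and 27 higher in light polysomes. No cluster passed in both fractions with opposite signs. Of the 12 genes with the smallest p among the 52, GKAP1 and LOC101928965 passed in heavy polysomes, both losing the call without siRNA-1 replicate 2 (adjusted p = 0.0610 and 0.0558), and 0 passed in light polysomes, and 6 of the 12 had a mean value under the 95th percentile of the negative controls. IHH, the secreted ligand Indian hedgehog, was measured above that level. Its values in heavy polysomes were 5.65, 5.79 and 5.50 with siRNA-1, against 6.14, 6.03, 6.22 and 5.90 with control siRNA. In light polysomes they were 6.26, 6.44 and 6.06 with siRNA-1, against 5.92, 6.07, 5.82 and 5.96 with control siRNA. The heavy values did not overlap and the light values overlapped narrowly, and neither effect passed (-0.42, adjusted p = 0.0789, and 0.31, adjusted p = 0.168). The shift of IHH was -0.74 (SE 0.174, adjusted p = 0.582). ALG5, an enzyme that makes the glucose donor for protein glycosylation, had 0.35 in heavy and -0.39 in light polysomes with overlapping differences, and ARHGAP36, a regulator of protein kinase A, had -0.31 and 0.31 (shifts of 0.74 and -0.63, adjusted p = 0.809 and 0.643).

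The study asked how lncNB1 acts on the translation of E2F1, the transcription factor that drives entry into DNA replication. By RT-PCR of heavy and light polysomes, it reported a move of E2F1 mRNA towards the light fraction after lncNB1 knockdown. It also reported less E2F1 synthesis by puromycin labelling and less E2F1 RNA bound to RPL35. The values of E2F1 in heavy polysomes were 8.23, 7.76 and 7.73 with siRNA-1, against 8.73, 8.73, 8.57 and 8.43 with control siRNA. In light polysomes they were 8.64, 8.96 and 9.21 with siRNA-1, against 9.16, 9.60, 9.45 and 9.56 with control siRNA. All heavy values with siRNA-1 lay below those with control siRNA, while the light values overlapped at 1 array on each side. E2F1 is on the study's list of mRNAs lower in heavy polysomes, which was chosen on these samples, so its fall there is not independent evidence. E2F1 fell by 0.71 in heavy polysomes (SE 0.146, adjusted p = 0.00873) and by 0.50 in light polysomes (SE 0.149, adjusted p = 0.0394). The first call was lost without siRNA-1 replicate 2 (adjusted p = 0.0557), and the second when either siRNA-1 replicate 1 or 2 or any of control replicates 2, 3 and 4 was left out (largest adjusted p = 0.166).

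The heavy minus light differences of E2F1 were -0.41, -1.20 and -1.49 with siRNA-1 and -0.43, -0.87, -0.89 and -1.13 with control siRNA. All 7 differences lay below 0, which places E2F1 lower among the mRNAs of the heavy than of the light fraction, and the groups overlapped. The means were -1.03 ± 0.56 with siRNA-1 (SD, n = 3) and -0.83 ± 0.29 with control siRNA (SD, n = 4). The shift was -0.20 (SE 0.239, 95% interval -0.71 to 0.31, limma adjusted p = 0.959). The direction rested on siRNA-1 replicate 4, without which the shift was 0.024. Without siRNA-1 replicate 1 it was -0.51. The order of the E2F1 differences followed the slopes, with replicate 1 nearest to 0 and replicate 4 farthest with both siRNAs, and with each difference divided by its slope the shift was -0.11.

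DEPDC1B, a protein with a domain of guanosine triphosphatase regulators, fell by 0.76 in heavy (adjusted p = 0.00458) and by 1.12 in light polysomes (adjusted p = 7.3e-05). Its differences were 0.15, 0.21 and -0.04 with siRNA-1 and -0.21, -0.03, -0.64 and -0.17 with control siRNA, which overlapped narrowly. The shift was 0.37 (SE 0.193, 95% interval -0.04 to 0.78, adjusted p = 0.914). MYCN, the oncogene amplified in these cells, had differences of -0.01, 0.19 and 0.23 with siRNA-1 and -0.04, -0.08, 0.17 and 0.01 with control siRNA, and a shift of 0.12 (SE 0.158, 95% interval -0.22 to 0.46, adjusted p = 0.963). Its fall of 0.43 in light polysomes (adjusted p = 0.0314) lost its call without any 1 of siRNA-1 replicates 2 and 4 and control replicates 1, 2 and 4 (largest adjusted p = 0.145). RPL35, a protein of the large ribosomal subunit, had values of 11.45, 11.58 and 11.43 with siRNA-1 and 11.73, 11.73, 11.39 and 11.43 with control siRNA in heavy polysomes. Its differences were 0.04, -0.10 and -0.35 with siRNA-1 and 0.05, 0.01, -0.41 and -0.24 with control siRNA, a shift of 0.0095 (SE 0.186, 95% interval -0.39 to 0.41, adjusted p = 0.998) whose sign turned under 8 alternatives.

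TFDP1, the partner with which E2F1 binds DNA, fell by 0.81 in light polysomes (adjusted p = 0.00162), had an effect of -0.46 in heavy polysomes (adjusted p = 0.109) and had a shift of 0.35 (SE 0.240, adjusted p = 0.927). The shifts of all 15 measured genes that the study names lay between -0.23 (TUBB2B, a tubulin) and 0.37 (DEPDC1B). None had an unadjusted p under 0.05, against 5.62% of all clusters. Of the 15, 0 had differences that did not overlap between siRNA-1 and control. Over all clusters, 3.16% lay wholly above and 3% wholly below control. With 15 genes, counts of 0 do not set them apart from the other clusters. MAPK3, the kinase ERK1, had a shift of 0.15, and the RNA-binding proteins ILF2 and IGF2BP1 had shifts of 0.0066 and -0.021, whose signs turned under other settings.

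**Figure D4:**
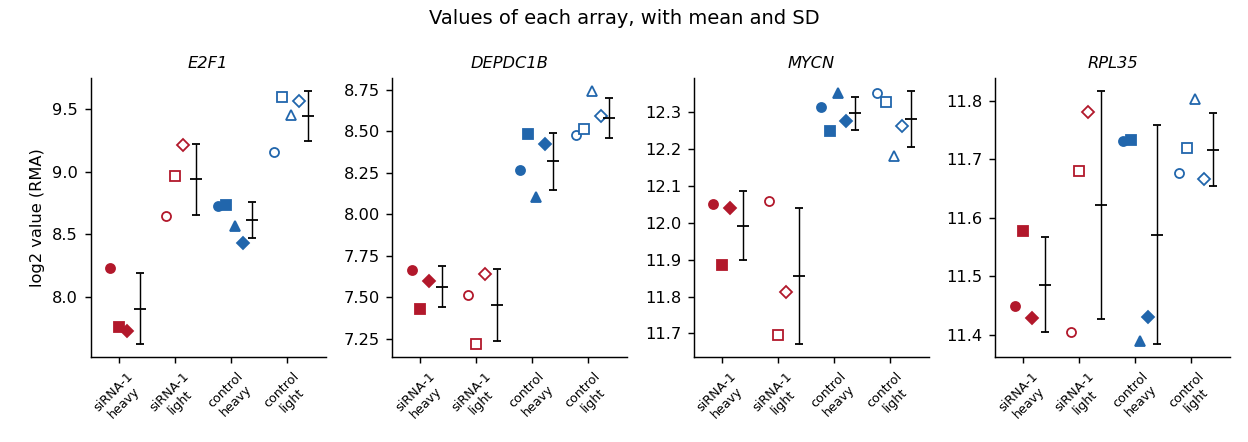
Log2 values of E2F1, DEPDC1B, MYCN and RPL35 (vertical axes, each with its own range) in heavy and light polysomes with siRNA-1 (left, n = 3) and control siRNA (right, n = 4). Filled points are heavy and open points light polysomes, with a circle for replicate 1, a square for 2, a triangle for 3 and a diamond for 4, and the bars give the mean and SD. E2F1 and DEPDC1B have lower means with siRNA-1 in both fractions, and RPL35 values overlap.

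Many genes of the cell cycle fell with siRNA-1 in both fractions. Among the 62 measured genes of DNA replication and other E2F targets, 32 fell and 0 rose in heavy polysomes, and 49 fell and 0 rose in light polysomes, with median effects of -0.57 and -0.74. Of 68 genes of G2/M and mitosis, 40 fell and 0 rose in heavy polysomes, and 62 fell and 0 rose in light polysomes, with medians of -0.61 and -0.76. Of all clusters, 3.23% were lower in heavy and 6.32% in light polysomes, and the medians were 0.00 in both fractions. The heavy counts were 17 and 20 without siRNA-1 replicate 2. TYMS, the enzyme that makes thymidylate, had values in light polysomes of 9.38, 9.07 and 9.39 with siRNA-1, against 10.17, 10.18, 10.40 and 10.43 with control siRNA. It fell by 1.01 there (adjusted p = 0.000148) and by 0.58 in heavy polysomes (adjusted p = 0.0166), the second call being lost without siRNA-1 replicate 2 or control replicate 2 (largest adjusted p = 0.0974). CCNA2, cyclin A2, fell by 1.26 in light polysomes (adjusted p = 4.26e-05) and by 0.69 in heavy polysomes (adjusted p = 0.0109, and 0.0683 without siRNA-1 replicate 2).

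The shift of these genes was small. For the E2F targets and replication genes the median was 0.12, and 46 of 62 had a shift above 0. For G2/M and mitosis the median was 0.17, with 56 of 68 above 0, against 0.028 and 55.3% over all clusters. None passed. At an unadjusted p under 0.05 there were 3 above and 1 below 0 in each list, which is 4.84% and 1.61% of the first and 4.41% and 1.47% of the second, against 3.08% and 2.55% of all clusters. The largest shifts with such a p were those of CCNA2 (0.57, SE 0.185), CCNE1 (0.53, SE 0.202), cyclin E1, and TYMS (0.43, SE 0.180), while MCM7, a subunit of the replicative helicase, had -0.47 (SE 0.188). CCNA2 had differences of 0.97, 0.73 and 1.40 with siRNA-1 and 0.37, 0.42, 0.40 and 0.66 with control siRNA, which did not overlap. A gap in this direction held for 3.16% of all clusters. CCNA2 was named for its small p in these same differences, so the gap is not separate support. The median shift of the E2F list ran between 0.022 (siRNA-1 replicate 4 left out) and 0.24 (siRNA-1 replicate 1 left out), and that of the G2/M list between 0.091 and 0.23 with the same arrays left out. The count of 3 above 0 in the E2F list was 12 without siRNA-1 replicate 1, 6 without control replicate 4, 1 without control replicate 1, and 0 without siRNA-1 replicate 2 or 4. In the G2/M list it was 12 without siRNA-1 replicate 1, 5 without siRNA-1 replicate 2 or control replicate 3, and 2 without siRNA-1 replicate 4. The part of the replicate slopes in these medians was not tested beyond dividing each difference by its slope, which gave medians of 0.094 and 0.18.

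The mRNAs of the translation machinery had median shifts between -0.046 and 0.073. Of 30 large-subunit and 21 small-subunit ribosomal proteins, 0 had an unadjusted p under 0.05, against 5.62% of all clusters. In lists of this size a count of 0 does not show that the mRNAs did not move. The median shifts of the ribosomal protein mRNAs were -0.015 and -0.046. Their median difference was below 0 with each siRNA, as it ran from -0.21 to -0.66 with siRNA-1 and from -0.24 to -0.67 with control siRNA for the large subunit, and from -0.23 to -0.94 with siRNA-1 and from -0.17 to -0.71 with control siRNA for the small subunit. These short mRNAs thus lay lower on the scale of the heavy than of the light arrays, and by least in replicate 1 with both siRNAs. Leaving out siRNA-1 replicate 4 gave median shifts of 0.13 and 0.12, and leaving out siRNA-1 replicate 1 gave -0.13 and -0.14. There were also 21 other mRNAs that start with the pyrimidine tract of ribosomal protein mRNAs, and 49 translation factors. Of these, 0 had an unadjusted p under 0.05, against the same 5.62% (median shifts -0.027 and 0.073). Of the translation factors, 36 of 49 had a shift above 0, against 55.3% of all clusters, and their median was 0.00065 without control replicate 1. EIF2AK4, a kinase of the initiation factor eIF2, had 0.35 (SE 0.175) and EIF4B, a helper of an RNA helicase in initiation, -0.28 (SE 0.198). Among 74 mitochondrial ribosomal proteins, 54 (73.0%) had a shift above 0, against 55.3% of all clusters (median 0.064, and 0.00080 without control replicate 3). Such a p was reached by 2 (2.70%) above and 1 (1.35%) below 0, against 3.08% and 2.55% of all clusters. These were MRPL22 (0.48), MRPS7 (0.49) and MRPL17 (-0.46), none of which passed.

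**Figure D5:**
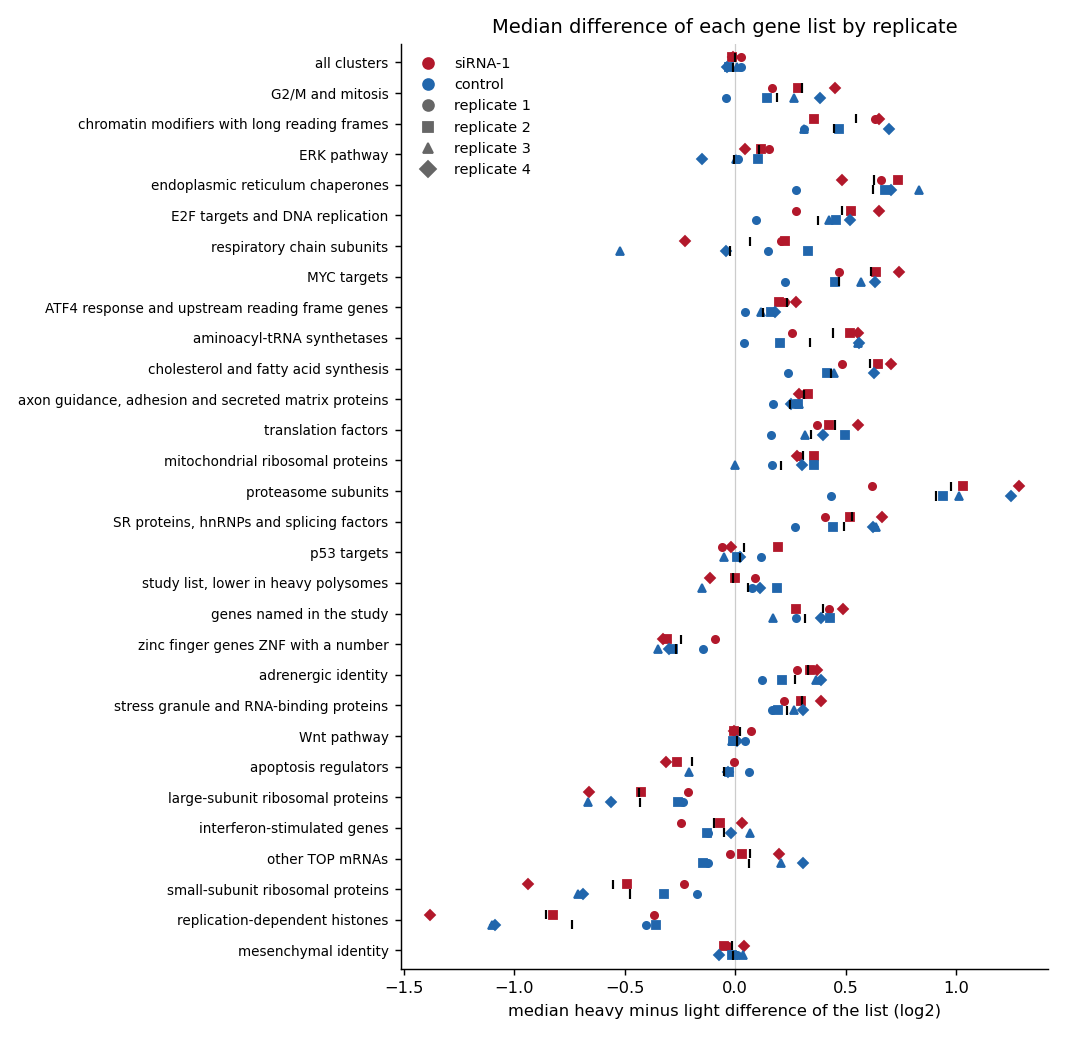
Median heavy minus light log2 difference of each gene list (horizontal axis) by replicate number with siRNA-1 (upper points of a row) and control siRNA (lower points), and of all clusters in the top row. Black lines give the group means. Proteasome mRNAs have the highest differences and histone and small-subunit ribosomal protein mRNAs the lowest with both siRNAs. The siRNA-1 and control points overlap in every row but that of the ATF4 response. There the gap is narrow, with 0.198 for siRNA-1 replicate 2 and 0.179 for control replicate 4.

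Secretory and stress genes gave few shifts. Of 27 chaperones of the endoplasmic reticulum, 24 had a shift above 0 and the median was 0.14, with 1 at an unadjusted p under 0.05. This was DNAJB9, a co-chaperone of BiP. Its values in heavy polysomes were 9.70, 9.63 and 9.46 with siRNA-1, against 8.88, 9.01, 8.70 and 8.50 with control siRNA. In light polysomes they were 9.27, 8.99 and 8.97 with siRNA-1, against 8.84, 9.04, 8.75 and 8.64 with control siRNA. Only the heavy values were apart, and DNAJB9 rose by 0.82 there (adjusted p = 0.00285), with an effect of 0.26 in light polysomes (adjusted p = 0.254). Its differences were 0.43, 0.64 and 0.48 with siRNA-1 and 0.04, -0.04, -0.05 and -0.14 with control siRNA, a shift of 0.56 (SE 0.159, 95% interval 0.22 to 0.90, adjusted p = 0.713). The median of the list was 0.01 without control replicate 1. In the ATF4 response, SLC7A11, which carries cystine into the cell, rose by 1.19 in heavy (adjusted p = 0.00136) and by 0.69 in light polysomes (adjusted p = 0.00259), with a shift of 0.50 (SE 0.173, adjusted p = 0.825). It was the only 1 of 38 genes with an unadjusted p under 0.05, against 5.62% of all clusters. The median shift of this list was 0.083, and 20 of 38 (52.6%) were above 0, against 55.3% of all clusters. That median was -0.016 with repeated quantile normalization and -0.019 without replicate 1 in any group.

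Among 67 genes of axon guidance, adhesion and the matrix, 4 (5.97%) had an unadjusted p under 0.05 above 0 and 0 below, against 3.08% and 2.55% of all clusters. TENM4, an adhesion protein of neurons, rose in both fractions (1.06, adjusted p = 0.00052, and 0.60, adjusted p = 0.00637) with a shift of 0.47 (SE 0.183). COL5A1, a collagen chain, had 0.57 and EPHA7, an ephrin receptor, 0.54, the second at a mean value of 4.60, under the 95th percentile of the negative controls. Of 42 chromatin modifiers with long reading frames, 35 (83.3%) had a shift above 0, against 55.3% of all clusters. The median was 0.15, and KMT2B, a histone methyltransferase, was the 1 (2.38%) with such a p (0.38, SE 0.164). That median was 0.037 with array weights. Of 448 zinc finger genes, 100 rose and 1 fell in heavy polysomes, and 103 rose and 11 fell in light polysomes, against 5.68% higher and 3.23% lower of all clusters in heavy and 5.27% higher and 6.32% lower in light polysomes. The heavy count of 100 was 63 and the light count of 103 was 62 without siRNA-1 replicate 2. Their shifts had a median of 0.03, with 13 above and 8 below 0 at an unadjusted p under 0.05 (2.90% and 1.79%). Those with the smallest p included ZNF605 (0.62, SE 0.167) and ZNF875 (-0.66, SE 0.203), neither of which passed.

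The study's list of mRNAs lower in heavy polysomes was chosen on these samples, so its direction there is not independent evidence. Of its 33 measured members, 27 fell in heavy polysomes and 28 in light polysomes, with medians of -0.71 and -0.74, and 0 rose in either, against 3.23% and 6.32% of all clusters that were lower. The heavy count was 16 without siRNA-1 replicate 2. The median shift was 0.042, and 18 of 33 (54.5%) were above 0, against 55.3% of all clusters. At an unadjusted p under 0.05 and above 0 there was 1 member (3.03%), against 3.08% of all clusters. This was COPZ2, a subunit of the COPI vesicle coat. It fell by 0.63 in heavy (adjusted p = 0.0042) and by 1.35 in light polysomes (adjusted p = 6.15e-05), with a shift of 0.71 (SE 0.180, adjusted p = 0.582). G3BP1, a protein that builds stress granules, fell by 1.17 in heavy (adjusted p = 0.000975) and by 0.80 in light polysomes (adjusted p = 0.000392). Its differences of 0.11, -0.04 and 0.03 with siRNA-1 lay below those of 0.13, 0.20, 0.61 and 0.69 with control siRNA. Such a gap held for 3% of all clusters, and G3BP1 was named for its small p in these differences. The shift was -0.37 (SE 0.181, limma adjusted p = 0.905).

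The remaining lists held at most 1 gene in each direction with an unadjusted p under 0.05. Of all clusters, 3.08% had such a p above and 2.55% below 0. Replication-dependent histones, whose mRNAs are short, had a median shift of -0.06 over 50 genes, which became 0.16 when siRNA-1 replicate 4 was left out and -0.29 when siRNA-1 replicate 1 was. Respiratory chain subunits had a median of 0.10 over 67 genes, proteasome subunits 0.06 over 32, splicing factors 0.05 over 40, cholesterol and fatty acid synthesis 0.08 over 26, and MYC targets 0.09 over 29. Leaving out 1 siRNA-1 or control difference at a time gave medians from -0.010 (control replicate 3) to 0.25 (siRNA-1 replicate 4) for the respiratory chain and from -0.091 (control replicate 1) to 0.25 (siRNA-1 replicate 1) for the proteasome. They ran from -0.077 (siRNA-1 replicate 4) to 0.10 (control replicate 3) for splicing factors, from 0.017 (control replicate 1) to 0.18 (control replicate 4) for cholesterol and fatty acid synthesis, and from 0.053 (control replicate 1) to 0.22 (siRNA-1 replicate 1) for MYC targets. ERK pathway genes had 0.15 over 29, aminoacyl-tRNA synthetases 0.08 over 16, p53 targets 0.04 over 23 and stress granule and RNA-binding proteins 0.01 over 32. The synthetase median ran from -0.062 without control replicate 1 to 0.19 without siRNA-1 replicate 1. Of 33 lists, 18 had a median shift that turned sign when 1 difference was left out, those of p53 targets and stress granule proteins among them. Interferon-stimulated genes had -0.03 over 34, with PARP14 at 0.65 (SE 0.207) and MX1 at -0.53 (SE 0.234). Adrenergic and mesenchymal identity genes, which mark the 2 cell states of neuroblastoma, had 0.02 and -0.07 over 30 genes each, with STMN4 at 0.45 in the first and SIX4 at -0.52 in the second. The Wnt pathway had 0.01 over 36 and apoptosis regulators 0.00 over 29, where CASP10, an initiator caspase, had -0.51 (SE 0.167). The apoptosis median ran from -0.16 without siRNA-1 replicate 1 to 0.077 without siRNA-1 replicate 4.

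The second siRNA against lncNB1 was set beside the first. For siRNA-2 minus control, 0 of 21448 shifts passed (limma, smallest adjusted p = 1.00) and 542 had an unadjusted p under 0.05. For the shift of siRNA-1 minus that of siRNA-2, in which the control arrays cancel, 0 (0%) passed, the smallest adjusted p was 0.249 and 1651 had an unadjusted p under 0.05. The smallest among the 16 leading genes was that of SLC4A7, with a shift of 0.72 for siRNA-1 and -0.33 for siRNA-2 and a difference of 1.05 (adjusted p = 0.249). Both shifts are taken against the same control arrays. MIGA1 had 0.91 for siRNA-1 and 0.50 for siRNA-2, and its siRNA-2 differences of 0.28, 0.24 and 0.09 lay between those of siRNA-1 and control. GDF9 had -1.43 for siRNA-1 and -0.83 for siRNA-2, with siRNA-2 differences of -0.68, -1.45 and -0.68. SLITRK6 had -1.38 for siRNA-1 and -0.18 for siRNA-2 (difference -1.20, adjusted p = 0.494), and CTSO 0.87 for siRNA-1 and -0.019 for siRNA-2 (difference 0.89, adjusted p = 0.407). E2F1 had -0.20 for siRNA-1 and -0.13 for siRNA-2 (difference -0.071, adjusted p = 0.965). For none of these genes was a difference between the siRNAs shown.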

How the data were processed

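The members and gene lists were chosen with earlier results of these data known. The authors processed the arrays with RMA (oligo), which corrects background and normalizes by quantiles, and deposited log2 values per probe set. R 3.5.3 and limma 3.38.3 are listed in the submitters' processing notes. Joint normalization of the 2 fractions and the genome build were not given in the sources used here. Precision is limited by the number of arrays, and medians of the 20 arrays lay between 6.58 and 6.68.

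Of 27189 probe sets, 21448 transcript clusters were kept, of which 17709 had 1 gene symbol, 0 several and 3739 none. A gene with several clusters (20) was represented by the one with the highest mean. Groups and replicate numbers came from the sample titles. Tests used R 4.3.3 and limma 3.58.1 (lmFit, eBayes) on the 10 heavy minus light differences in 3 groups, without a replicate block, and within the 10 heavy and the 10 light arrays, adjusted by Benjamini-Hochberg across all of the clusters (threshold 0.05). Slopes were compared with an exact permutation test. The code was tested on simulated data.

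Genes were named by rule: up to 12 called per direction, filled to 8 by smallest p, up to 6 per direction with opposite signs and an effect of at least 0.3 in both fractions, up to 3 per list by smallest p, and those named in the study. Lists are given as counts and medians, without a test. The alternatives were 7 differences alone, an unpaired fit, a replicate block, slope scaling, array weights, repeated quantile normalization, eBayes with trend and robust, a mean of at least 5, a required 1.5-fold shift, and leaving out replicates. A description by protein length was not run. How far lncNB1 itself was reduced was not analysed here.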

Additional observations from a re-analysis of the deposited data

Results flagged for a closer look

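Of 121 named genes, 1 had a control difference that stood apart from the other 3 by more than Dixon's 95% limit. It was H2BC8, a replication-dependent histone gene, with a heavy minus light difference of -1.77 in control replicate 4, where the other 3 lay between -1.28 and -1.24. Chance flags about 1 in 20 such groups. Control replicate 4 also had the highest control slope (1.33), and the part of that slope in the value was not tested.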

How the results depend on the processing

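The count of shifts that passed was also 0 with the 7 differences alone, the unpaired fit, the replicate block, slope scaling, repeated quantile normalization, trend and robust, a mean of at least 5 and a required 1.5-fold shift, without replicate 4 in any group, and without each of the 10 differences in turn. It was 3, all lower, with array weights (GDF9, SLITRK6 and an unnamed cluster), where GDF9 had -1.45 and SLITRK6 -1.49 (adjusted p = 0.0483 each), and 1, lower, without replicate 1 in any group (SLITRK6, -1.82, adjusted p = 0.0249). The cause was not tested. The shift of siRNA-1 minus that of siRNA-2 had 0 calls under all alternatives run. The slope difference of 0.044 kept its direction and its side of the threshold.

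The replicate numbers were not shown to pair the samples. The correlation of deviations was 0.494, -0.0647 and 0.346 for replicates 1, 2 and 4, and only siRNA-1 replicate 1 correlated best with the control difference of its own number. With the replicate block the shift had 0 calls, with 1784 at an unadjusted p under 0.05 and a smallest adjusted p of 0.172. The heavy effect then had 3501 calls (2063 higher, 1438 lower). Without 1 array the calls ranged from 913 to 1881 in heavy polysomes (647 to 1202 higher, 266 to 764 lower), and from 1531 to 2234 in light polysomes (689 to 1153 higher, 842 to 1245 lower).

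Of 2400 alternatives over 121 genes, 2368 kept direction and side of the threshold, 3 gained a call and 29 turned sign, all 29 in shifts that had not passed. RPL35 was -0.064 with the replicate block, -0.00045 with array weights, -0.073 with repeated quantile normalization and -0.014 without replicate 1 in any group. IGF2BP1 was 0.040 with the replicate block, 0.10 with array weights and 0.064 without replicate 1. DDX42 was -0.021 with array weights, -0.033 with repeated quantile normalization and -0.027 without replicate 1. ILF2 was -0.012 with slopes divided out, -0.037 with repeated quantile normalization and -0.010 without replicate 4. Without 1 difference at a time, shifts ranged from -0.51 to 0.024 for E2F1, from -0.081 to 0.12 for RPL35, from -0.18 to 0.22 for IGF2BP1, from -0.039 to 0.084 for DDX42, from -0.19 to 0.25 for ILF2, from -0.076 to 0.66 for RPS27L and from -0.31 to 0.011 for RPS15. With the replicate block or with slopes divided out (58 medians, each list under both), 57 medians of gene lists moved by less than the spread of the control replicates, and that of the Wnt pathway was 0.064 with slopes divided out. Without 1 siRNA-1 or control difference, the median turned sign in 18 of 33 lists.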
